A study of Mus musculus with 4 samples.

Results

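Fc receptors and the adaptors that pass on their signal were examined in cells sorted with an antibody against KSP, the cadherin encoded by Cdh16. The group was set as 9 genes: the Fc gamma receptors Fcgr1, Fcgr2b, Fcgr3 and Fcgr4, the adaptors Fcer1g and Tyrobp, the kinase Syk, and the receptors Trem2 and Pirb. They were taken from the array by gene symbol, which gave 18 of its 45037 probe sets and 9 of its 18193 genes. Each of the 9 genes had a probe set of its own, and 3 further probe sets were shared by Pirb with its neighbours of the Pira family and were kept apart.

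All 4 samples were made from a 129/Ola mouse ES cell line, CAG-GFP EB3, in which a ubiquitous promoter drives GFP. The cells were grown as embryoid bodies and then on gelatin, with Activin at 10 ng/mL, and were sorted on day 18. KSP-positive and KSP-negative cells were both gated for GFP and for exclusion of propidium iodide, and 2 independent experiments gave 2 arrays of each fraction. Both fractions had been treated before sorting with an antibody to CD16/CD32, the products of Fcgr3 and Fcgr2b, and then with the biotinylated mouse monoclonal antibody to KSP and fluorescent streptavidin. Per the methods, the gate for KSP was set on cells without antibody and on cells with streptavidin alone. The arrays measured RNA, so whether Fc receptors bound antibody during the sort was not tested.

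Fc receptors are surface proteins of white blood cells that bind the constant part of antibodies. The activating receptors for IgG signal through the gamma chain encoded by Fcer1g, a small protein with an immunoreceptor tyrosine-based activation motif (ITAM), and Tyrobp encodes DAP12, an adaptor of the same kind that serves receptors such as Trem2. Once Src family kinases have phosphorylated an ITAM, Syk binds to it and starts the response, while receptors with an inhibitory motif (ITIM), such as those encoded by Fcgr2b and Pirb, recruit phosphatases that oppose it. Macrophages are known for carrying most of these proteins at once.

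The values are MAS5 signals, the summary that the Affymetrix program gives for each probe set. They were scaled to a common 75th percentile, any value under a signal of 12.3 was set to that floor, and comparisons were made on the log2 scale. The 75th percentile as deposited lay between 226 and 321 in the 4 arrays, and the 3'/5' ratio of the actin probe sets, a sign of RNA degradation when high, lay between 1.79 and 3.55, with the higher ratios in KSP-positive replicate 1 and KSP-negative replicate 2. Cdh16 itself had log2 signals of 5.66 and 5.03 in KSP-positive and of 5.30 and 4.71 in KSP-negative cells, which overlapped (difference 0.34, 95% confidence interval -0.92 to 1.60, adjusted p = 0.816 from limma). A gene was tested when the mean log2 signal of a probe set exceeded 5.14, and adjusted p values are those of Benjamini and Hochberg across 12849 genes. Of the 9 genes, 7 were tested, and Trem2 and Pirb were not. Of the 7, Fcgr1 had a KSP-negative mean under that limit and so passed through its KSP-positive arrays, while the other 6 passed in KSP-negative cells as well.

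Among the Fc gamma receptors, Fcgr1 and Fcgr3 rose in KSP-positive cells. Fcgr1, which encodes the high-affinity IgG receptor CD64, had scaled signals of 438 and 250 in KSP-positive replicates 1 and 2 and of 18.3 and 8.62 in KSP-negative replicates 1 and 2. Both KSP-positive arrays were far above both KSP-negative arrays, of which replicate 2 lay under the floor, so the size of the difference depends on the floor. On the log2 scale the fractions had means of 8.37 ± 0.57 (SD, n = 2) and 3.90 ± 0.41 (SD, n = 2), a difference of 4.47 (standard error 0.50, adjusted p = 0.00233 from limma). It was 4.06 when KSP-positive replicate 1 was left out and 4.87 when replicate 2 was, and Fcgr1 passed each time a single array was left out. A second probe set of Fcgr1 (1436625_at) had signals of 98.5 and 29.8 in KSP-positive and of 18.8 and 33.9 in KSP-negative cells, which overlapped, and with the mean of both probe sets the log2 difference of Fcgr1 was 2.78. In these bulk samples, fewer cells of a type and less RNA per cell cannot be told apart.

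Fcgr3 encodes CD16, a low-affinity activating receptor. Its scaled signals were 544 and 334 in the KSP-positive and 74.5 and 47.9 in the KSP-negative arrays. The fractions did not overlap, and the 7.12-fold rise (log2 difference 2.83, standard error 0.43, adjusted p = 0.00821 from limma) exceeded the SD of 0.50 and 0.45 within them. The log2 difference of Fcgr3 was 2.48 when KSP-positive replicate 1 was left out and 3.19 when replicate 2 was, and the adjusted p did not exceed 0.0444 when any single array was left out.

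Fcgr4, another activating receptor, had scaled signals of 101 and 43.4 in the KSP-positive and 37.5 and 38.2 in the KSP-negative arrays. Only KSP-positive replicate 1 stood well above the rest. The log2 difference of 0.81 (95% confidence interval -0.43 to 2.04, adjusted p = 0.498 from limma) did not pass, and it fell to 0.20 or grew to 1.41 when KSP-positive replicate 1 or 2, respectively, was left out. The interval on this probe set includes both no difference and a difference as large as that of Fcer1g below.

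Fcgr2b encodes CD32B, the inhibitory receptor of the family, and its probe sets disagreed on the size of the difference. The brightest of them (1435476_a_at) had scaled signals of 628 and 289 in the KSP-positive and 171 and 190 in the KSP-negative arrays. Its fractions did not overlap, but the 2.36-fold difference did not pass the test (log2 difference 1.24, standard error 0.43, adjusted p = 0.152 from limma). Leaving out KSP-positive replicate 2 raised the difference to 1.80 (adjusted p = 0.0260), and leaving out KSP-positive replicate 1 lowered it to 0.68.

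The other Fcgr2b probe sets past the limit differed more. Probe set 1435477_s_at had signals of 907 and 260 against 34.7 and 20.8, an 18.1-fold difference, and 1455332_x_at had 407 and 158 against 20.5 and 21.1, a 12.2-fold difference. With 323 and 123 against 10.1 and 12.8, probe set 1451941_a_at was 15.9-fold higher, with 1 KSP-negative array under the floor. When each probe set was tested alone, these 3 passed (adjusted p between 0.0345 and 0.0374 from limma over 27022 probe sets), and with the mean of its probe sets Fcgr2b had a log2 difference of 3.25 (adjusted p = 0.0127). The remaining probe set of the gene, 1447622_at, was under the floor in all 4 arrays. The ending _a is the manufacturer's mark for probes shared by transcripts of the same gene, and _s and _x mark probes that may also match other transcripts. Whether related receptors added to these signals was not tested.

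**Figure D1:**
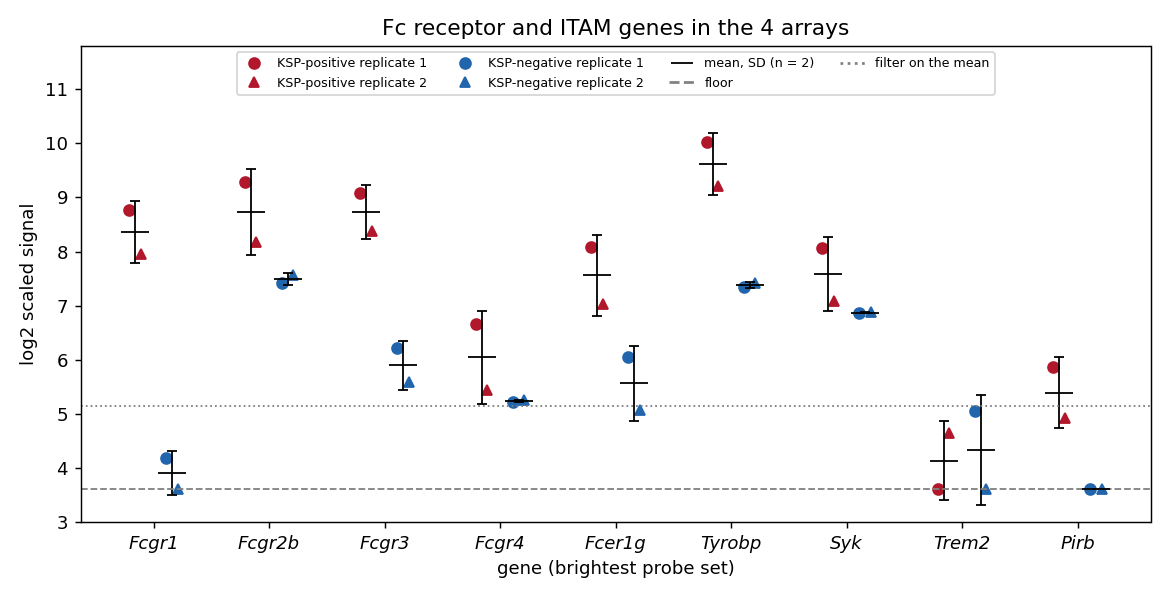
Log2 scaled signal (vertical axis) of the brightest probe set of each of the 9 genes (horizontal axis) in the 4 arrays; circles are replicate 1 and triangles replicate 2, bars are means, whiskers the SD (n = 2), the dashed line the floor and the dotted line the limit on the mean for testing. Both KSP-positive arrays lie above both KSP-negative arrays for every gene but Trem2, and KSP-positive replicate 1 lies above replicate 2 for every gene but Trem2; levels of different genes are not compared.

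Of the ITAM adaptors, Tyrobp rose and Fcer1g was higher without passing the test. Tyrobp had scaled signals of 1040.3 and 591 in the KSP-positive and 162 and 171 in the KSP-negative arrays. The KSP-negative arrays lay close together and both were below both KSP-positive arrays. The rise was 4.70-fold (2.23 on the log2 scale, standard error 0.39, adjusted p = 0.0137 from limma), and it was 2.27 with adjusted p = 0.0513 without KSP-negative replicate 2. When KSP-positive replicate 1 was left out Tyrobp differed by 1.83 (adjusted p = 0.0405), and when replicate 2 was, by 2.64.

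Fcer1g had scaled signals of 273 and 131 in the KSP-positive and 66.4 and 33.8 in the KSP-negative arrays. The fractions did not overlap, and each had a wide spread, with an SD of 0.75 and 0.69 on the log2 scale. The difference was 2.00 (standard error 0.52, 95% confidence interval 0.85 to 3.15), with adjusted p = 0.0658 from limma. It passed with the values as deposited (adjusted p = 0.0186), and when either KSP-positive replicate 2 (0.00553) or KSP-negative replicate 1 (0.0394) was left out. Leaving out KSP-positive replicate 1 gave an adjusted p of 0.311.

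Syk, the kinase that docks on phosphorylated ITAMs, did not pass the test. Its brightest probe set had scaled signals of 269 and 137 in the KSP-positive and 117.3 and 117.5 in the KSP-negative arrays. KSP-positive replicate 2 was only slightly above the KSP-negative arrays. The brightest probe set differed by 0.71 (log2, 95% confidence interval -0.25 to 1.67, adjusted p = 0.435 from limma), and 0.22 without KSP-positive replicate 1. A second probe set past the limit (1418262_at) overlapped between the fractions with a difference of 0.37, and the others, both below the limit, had differences of -0.36 and -0.16.

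Pirb and Trem2 had too little signal to be tested. Pirb, an ITIM receptor for MHC class I, had scaled signals of 58.0 and 30.5 in KSP-positive cells and of 6.93 and 3.44, under the floor, in the KSP-negative arrays. With the KSP-negative arrays set to the floor, Pirb was 3.43-fold higher in KSP-positive cells, a size that depends on the floor. In a fit of all 18193 genes its log2 difference of 1.78 had a 95% confidence interval of 0.55 to 3.01. Its adjusted p in that fit was 0.344 from limma, where the lowest of any gene was 0.201 and 0 genes were called. Of the 3 probe sets that Pirb shares with other genes, the broadest (1420464_s_at) had signals of 38.8 and 16.5 against 7.47 and 9.68, and the others overlapped between the fractions.

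Trem2, the DAP12-coupled lipid receptor of macrophages and microglia, had scaled signals of 4.88 and 25.1 in the KSP-positive and 33.1 and 10.6 in the KSP-negative arrays. The fractions overlapped, with 1 array of each under the floor. The log2 difference of -0.20 had a 95% confidence interval of -2.50 to 2.10. The second probe set of Trem2 was under the floor in all 4 arrays, so the arrays set no useful bound on this gene.

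Over the group, 3 of the 7 tested genes rose (Fcgr1, Fcgr3 and Tyrobp) and none fell, where 1.84% of all tested genes were higher and 1.65% lower. The number was 5 when KSP-positive replicate 2 was left out and 2 when KSP-negative replicate 2 was. More than 2-fold higher were 5 of the 7, against 7.92% of all genes, and both KSP-positive arrays lay above both KSP-negative arrays in each of the 7, against 24.4% of all genes. The median log2 difference of the tested genes was 2.00, and that of all 12849 genes was -0.03. Of the 18 probe sets, 12 passed the limit on the mean, and the KSP-positive arrays lay above the KSP-negative arrays in 10 of these 12. Of the 6 below it, Pirb alone showed no overlap.

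**Figure D2:**
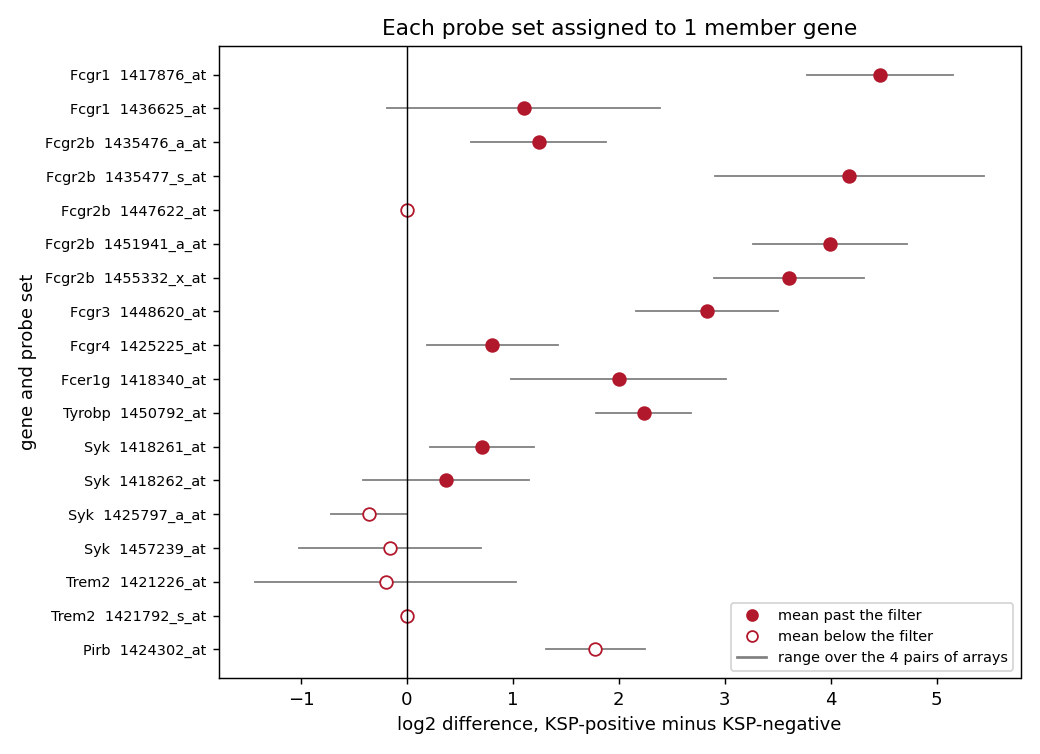
Horizontal axis, log2 signal in KSP-positive minus KSP-negative cells for the 18 probe sets assigned to 1 of the genes (vertical axis); filled points have a mean past the limit for testing, open points do not, and grey lines span the 4 differences between single arrays of the fractions. The Fcgr2b probe sets range from 1.24 to 4.18 among those past the limit, and the Syk probe sets range from -0.36 to 0.71.

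KSP-positive replicate 1 had more signal than replicate 2 for each of the 7 tested genes, with a median log2 difference of 0.98 between these replicates. Over all 12849 tested genes the median was -0.03, and 6139 were higher in KSP-positive replicate 1 (-0.53 and 2291 with the values as deposited). The same order held for 15 of 15 tested macrophage markers other than these genes, with a median of 1.03 (13 of 15 with the values as deposited, where the 7 genes also kept their order). It was turned for 8 of 8 endothelial and 5 of 5 megakaryocyte markers, which were lower in KSP-positive replicate 1, with medians of -2.31 and -1.09. Between the KSP-negative replicates the order depended on the scaling, with 3 of the 7 genes higher in replicate 1 (median difference -0.0028), but 7 of 7 with the values as deposited (median 0.22).

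Promoter stretches are shown for the Fc gamma receptors, because PU.1, a transcription factor of myeloid cells, binds sites with the core GAGGAA. Windows from RefSeq (GRCm38.p6) with 250 bases before and 50 after each start of transcription were at hand for 8 of the 9 genes, and the window of Tyrobp was not analysed here. The core GAGGAA, searched on both strands, was found in 6 of the 8 genes (Fcgr1, Fcgr3, Fcgr4, Syk, Trem2 and Pirb), and in 31.3% of 27025 genes and 28.3% of 32851 windows overall. A joint site of PU.1 and interferon regulatory factors, GGAA followed after 2 bases by GAAA, was found in Fcgr2b alone and in 3.16% of genes. The matches did not overlap each other. Stretches before the start are printed in the direction of the gene, with the matched letters, on either strand, in capitals.
Fcgr1, chr3:96293989-96294054, minus strand: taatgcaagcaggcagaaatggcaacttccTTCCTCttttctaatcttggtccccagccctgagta
Fcgr2b, chr1:170976072-170976136, minus strand: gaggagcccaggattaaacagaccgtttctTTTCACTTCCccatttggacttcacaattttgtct
Fcgr3, chr1:171059404-171059439, minus strand: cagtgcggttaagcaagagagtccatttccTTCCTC
Fcgr4, chr1:171018874-171018925, plus strand: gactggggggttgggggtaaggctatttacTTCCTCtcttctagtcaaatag

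These letters describe the windows and do not show that a factor bound there. Genes that rose (Fcgr1 and Fcgr3) and genes that did not pass (Fcgr4, Syk) both held the PU.1 core, and Fcer1g held neither motif. Spi1, the gene of PU.1, had log2 signals of 7.05 and 6.36 in the KSP-positive and 5.92 and 6.05 in the KSP-negative replicates, a difference of 0.72 that did not pass (adjusted p = 0.454 from limma).

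A further list held other Fc receptors and related immune receptors and chains, some of which pair with Fcer1g or DAP12. Among its genes, Clec4d, Clec4e, Clec4n and Fcrls rose. Of 38 such genes, 36 had a probe set, 13 were tested, 4 rose and none fell, beside 1.84% of all genes higher, with a median log2 difference of 1.42. Clec4d, a lectin that signals through the Fc receptor gamma chain, had scaled signals of 1841 and 547 in KSP-positive cells and of at most 40.1 in KSP-negative cells (log2 difference 5.31, adjusted p = 0.00236 from limma). Clec4e, which encodes the mycobacterial glycolipid receptor Mincle, had a difference of 4.12 with 1 KSP-negative array at the floor (adjusted p = 0.00295), and Clec4n, which encodes Dectin-2, one of 3.35 (adjusted p = 0.00251). Fcrls, an Fc receptor-like gene of macrophages and microglia, had one of 3.70 (adjusted p = 0.00202). All 4 were higher in both KSP-positive arrays. Clec4d and Clec4e had KSP-negative means of 4.66 and 4.12, under the limit of 5.14, so they were tested only through their KSP-positive arrays. Clec7a, the C-type lectin Dectin-1 of the same list, did not pass (difference 0.35, adjusted p = 0.713).

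Fcgrt, the neonatal Fc receptor that recycles IgG in endothelial and epithelial cells as well as in macrophages, had log2 signals of 9.05 and 9.68 in the KSP-positive and 8.10 and 6.71 in the KSP-negative arrays. Unlike the 7 genes above, it was higher in KSP-positive replicate 2 than in replicate 1. Its difference was 1.96 (adjusted p = 0.0518 from limma), with adjusted p values from 0.00848 to 0.254 when single arrays were left out. Cd300c2, an activating receptor of myeloid cells, had a difference of 1.42 (adjusted p = 0.114). Trem3 was the only tested gene of this list that was more than 2-fold lower, with a difference of -1.14 that did not pass (adjusted p = 0.428) and 1 KSP-positive array, replicate 2, at the floor, and without that array it was -0.14.

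The IgE receptor chains of mast cells and receptor genes of T and NK cells had little signal. Fcer1a, the IgE-binding chain of the mast cell receptor, and Ms4a2, its beta chain, had scaled signals of at most 20.7 in any array and were not tested. The T cell receptor chains Cd3e, Cd3d and Cd3g and the NK cell receptor Ncr1 were under the floor in all 4 arrays, as was Clec5a, another partner of DAP12.

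Among kinases and effectors downstream of ITAMs, Cybb and Ncf4 rose. Of 47 genes, 41 had a probe set, 37 were tested, 2 rose, none fell and 35 did not pass, beside 1.84% of all genes higher, with a median log2 difference of 0.22. Cybb, the catalytic chain of the NADPH oxidase of phagocytes, had log2 signals of 9.69 and 8.04 against 6.33 and 5.50 (difference 2.95, adjusted p = 0.0169 from limma), and Ncf4, a cytosolic subunit, differed by 2.38 (adjusted p = 0.0147). Other genes of this oxidase on the list did not pass: Ncf1 differed by 0.08 (adjusted p = 0.940), Cyba by -0.20 (adjusted p = 0.841) and Rac2 by 0.82 (adjusted p = 0.398). Without KSP-negative replicate 2 neither passed, with adjusted p = 0.0922 for Cybb and 0.0568 for Ncf4, and with the mean of its probe sets Cybb had a difference of 1.99 (adjusted p = 0.0519). Fyb, an adaptor of T cells and myeloid cells, differed by 1.60 (adjusted p = 0.0654, or 0.0161 when KSP-positive replicate 2 was left out and 0.0189 with the mean of its probe sets). Malt1, which links receptors to NF-kappa B, differed by 1.12 (adjusted p = 0.192).

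Some kinases and effectors had lower means in KSP-positive cells. Src differed by -1.14 (adjusted p = 0.214 from limma), and by -1.83 (adjusted p = 0.0225) when KSP-positive replicate 2 was left out. Vav2, an exchange factor phosphorylated after receptor engagement, differed by -1.25 (adjusted p = 0.146). Zap70, the relative of Syk in T cells, had log2 signals of 5.20 and 8.69 in the KSP-positive and 8.96 and 8.49 in the KSP-negative arrays. KSP-positive replicate 1 alone was low for Zap70, and its difference of -1.78 did not pass (adjusted p = 0.300). It was -0.04 when that array was left out and -3.52 (adjusted p = 9.17e-06) when KSP-positive replicate 2 was.

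Among genes that oppose ITAM signalling, Ptprc and Clec4a2 rose. Of 31 genes of ITIM receptors and phosphatases, 29 had a probe set, 22 were tested, 2 rose, none fell and 20 did not pass, beside 1.84% of all genes higher, with a median log2 difference of 0.07. Ptprc, which encodes the phosphatase CD45 of white blood cells, had log2 signals of 10.20 and 9.37 against 7.66 and 7.57 (difference 2.17, adjusted p = 0.0147 from limma), and Clec4a2, an ITIM lectin of myeloid cells, had a difference of 2.93 (adjusted p = 0.0290). Ptprc missed the threshold when KSP-positive replicate 1 (adjusted p = 0.0509) or KSP-negative replicate 2 (0.0637) was left out, and Clec4a2 without each array but KSP-positive replicate 2 (0.0559 to 0.116). With the floor at the 40th percentile, Clec4a2 had a difference of 1.82 (adjusted p = 0.0825). Its KSP-negative mean of 4.10 was under the limit of 5.14, so it too was tested only through its KSP-positive arrays.

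Other genes of this list had means more than 2-fold higher that did not pass. They were Sirpa, the receptor of CD47, with a difference of 1.56 (adjusted p = 0.0587 from limma), Cd300lf with 2.30 (adjusted p = 0.0946), Cd72 with 1.82 (adjusted p = 0.123), Pag1, a membrane adaptor of the kinase Csk, with 1.40 (adjusted p = 0.114), and Cd300a with 1.19 (adjusted p = 0.141). When KSP-positive replicate 2 was left out, Sirpa, Cd300lf, Cd72 and Pag1 passed (adjusted p between 0.00453 and 0.0161) and Cd300a did not. With the mean of the probe sets the difference was 0.94 for Sirpa (adjusted p = 0.253) and 0.45 for Pag1 (adjusted p = 0.578), and with the floor at the 40th percentile it was 1.09 for Cd300lf (adjusted p = 0.322). Ptpn6 and Inpp5d, the phosphatases SHP-1 and SHIP1 that ITIMs recruit, had differences of -0.33 (adjusted p = 0.740) and 0.22 (adjusted p = 0.826). The difference between receptors and phosphatases was not tested.

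**Figure D3:**
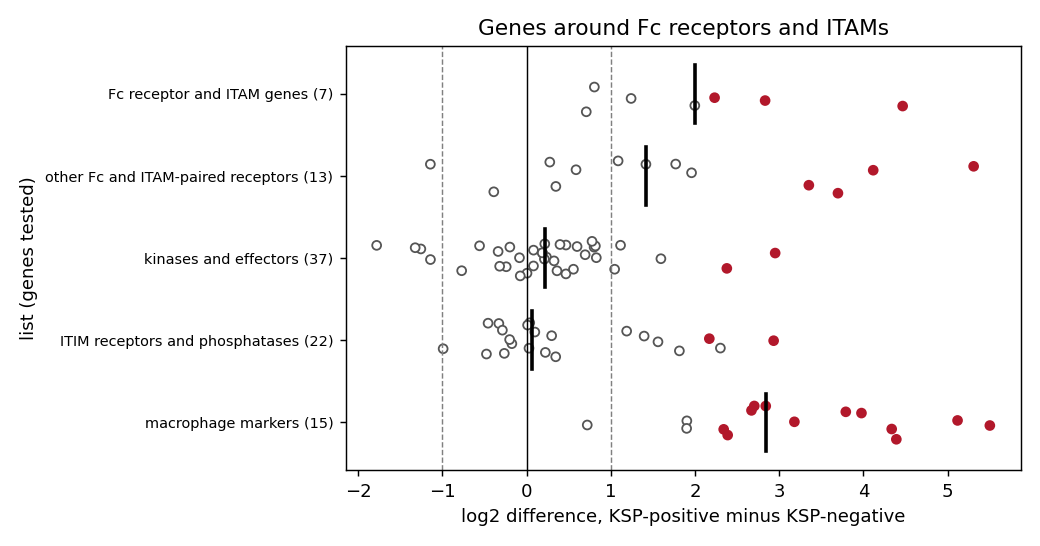
Horizontal axis, log2 signal in KSP-positive minus KSP-negative cells (2 arrays of each) for every tested gene of 5 lists (vertical axis, with the number tested); genes called by limma at 0.05 are filled in red and the others are open, each list has its median as a black bar, and 2-fold changes are dashed. The medians are 2.00 for the Fc receptor and ITAM genes, 0.22 for the kinases and effectors and 2.84 for the macrophage markers.

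Markers of macrophages moved with the Fc receptor genes. Of 19 macrophage markers other than the 9 genes, 18 had a probe set, 15 were tested, 12 rose and none fell, with a median log2 difference of 2.84. Their summed scaled signal was 14660 to 31417 in KSP-positive and 2852 to 2982 in KSP-negative cells, and that of the 9 genes was 1831 to 3356 and 622 to 687. Adgre1, which encodes F4/80, had scaled signals of 1162 and 567 against 74.0 and 108, and Csf1r, the receptor of macrophage colony-stimulating factor, 5348 and 3072 against 612 and 632. C1qa and C1qc, which were among the 12 that rose, had KSP-negative means of 3.62 and 4.34 on the log2 scale. These means were under the limit of 5.14, so C1qa and C1qc were tested only through their KSP-positive arrays. C1qa was at the floor in both KSP-negative arrays, and both genes are counted in the median of 2.84. Cd163 was under the floor in all 4 arrays. These lists were chosen with earlier results of the same arrays known, and what part macrophages have in the signal of the Fc receptor genes was not tested.

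None of the tested markers of mast cells (3), neutrophils (3), B cells (1), T and NK cells (1) or megakaryocytes (5) passed in either direction. For mast cells and for neutrophils, these were 3 of 10 markers with a probe set. For B cells they were 1 of 7, and for T and NK cells 1 of 8. Of the 3 neutrophil markers tested, 2 were more than 2-fold higher and 1 was lower, each without overlap. Of all genes, 7.92% were more than 2-fold higher, and 24.4% had both KSP-positive arrays above both KSP-negative arrays. The 2 higher neutrophil markers had KSP-negative means of 5.04 and 4.66, under the limit of 5.14, so they were tested only through their KSP-positive arrays. Summed signals overlapped between the fractions for neutrophil markers, at 273 to 299 in KSP-positive and 246 to 303 in KSP-negative cells, and for B cell and for T and NK cell markers. The sum of the mast cell markers was lower in both KSP-positive arrays, at 1033 to 1070 against 1259 to 1349, and came mostly from Kit and Gata2, which other cells express as well. Megakaryocyte markers summed to 2542 to 5810 in KSP-positive and 1981 to 2224 in KSP-negative cells, with the highest value in KSP-positive replicate 2, where the Fc receptor genes had less signal than in replicate 1. Endothelial markers overlapped, at 1576 to 4147 and 1757 to 3037.

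Pluripotency markers moved the opposite way. All 10 of them fell, with summed signals of 1453 to 1792 in KSP-positive and 12462 to 25639 in KSP-negative cells. Of 10 renal markers, 8 had a probe set and 6 were tested. None rose and Lhx1 fell (difference -2.29, adjusted p = 0.0346 from limma), beside 1.84% of all genes higher and 1.65% lower. Lhx1 differed by -2.82 to -1.76 when single arrays were left out, and did not pass without KSP-negative replicate 2. Osr1 and Pax8 had means too low to be tested. Osr1 had scaled signals of 52.4 and 61.7 in KSP-positive and of 14.3 and 18.4 in KSP-negative cells. Pax8 went the other way, with 26.4 and 2.13 against 37.4 and 36.5.

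**Figure D4:**
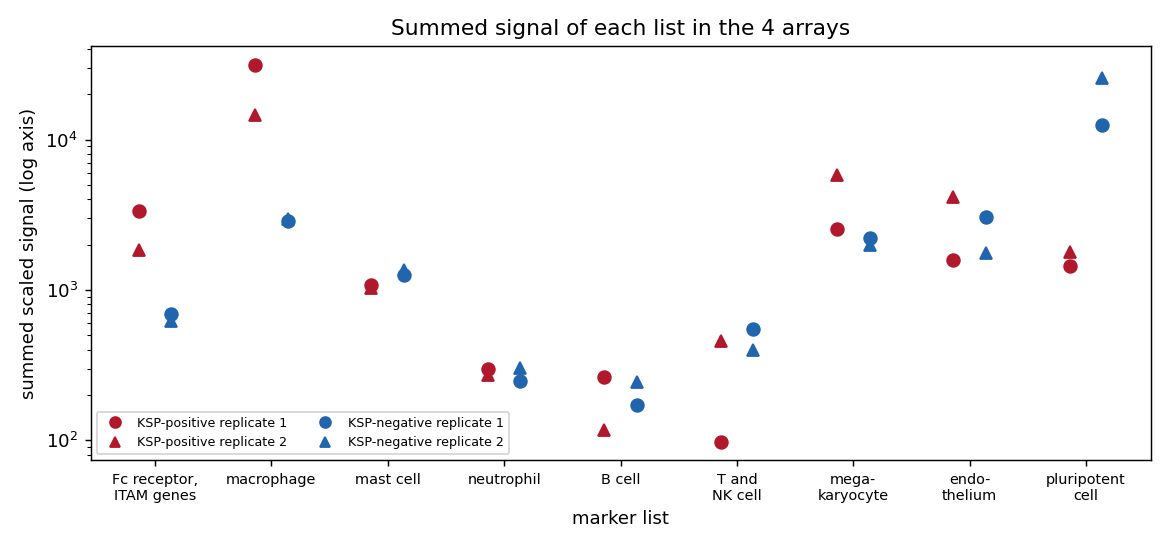
Summed scaled signal (vertical axis, log scale) of the genes of 9 lists (horizontal axis) in each array; circles are replicate 1 and triangles replicate 2, red for KSP-positive and blue for KSP-negative cells. The sums of the Fc receptor and ITAM genes and of the macrophage markers are higher in both KSP-positive arrays and highest in replicate 1, whereas the sums of the megakaryocyte and endothelial markers are highest in KSP-positive replicate 2.

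The genes closest to the mean profile of the 7 tested genes over the 4 arrays were of mixed kinds. Likeness was the root mean square distance between log2 signals after each gene was centred on its own mean, and it lay between 0.0806 and 0.158 for the 8 nearest genes. Nearest was Ptger3, a receptor of prostaglandin E2, followed by Ptprc, Kcnk3, a potassium channel, Pld4, an exonuclease of the lysosome, and Fxyd5. Then came Arhgef6, an exchange factor of Rac, Phactr2 and Pcolce, which enhances the processing of procollagen. With 4 arrays such a match describes the order of the samples, in which KSP-positive replicate 1 was highest and KSP-negative replicate 2 lowest.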

How the data were processed

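RNA of 2 KSP-positive and 2 KSP-negative fractions was amplified by two-cycle labelling and hybridised to Affymetrix mouse genome arrays. The authors summarised each probe set as a MAS5 signal, and these deposited values are intensities on a linear scale. The signals were scaled to a common 75th percentile, raised to a floor at the 20th percentile of all values, and put on a log2 scale. Control probe sets were left out. Of the rest, 34945 probe sets named 1 gene, 932 several and 9160 no gene, and symbols were taken from the platform annotation, and a lookup in RefSeq by gene number changed 0 of them. A probe set was kept when its mean exceeded the 40th percentile, and the brightest stood for its gene. KSP-positive and KSP-negative arrays were tested against each other in limma 3.58.1 (R 4.3.3; empirical Bayes with an intensity trend, Benjamini-Hochberg adjustment, threshold 0.05), after a test on simulated data. The number of arrays limits the precision, and an exact permutation test of 2 against 2 arrays cannot go below p = 0.333. Whether replicates were separate cultures is known only as 2 independent experiments, and replicate numbers were not tied to these, so no block was used.

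The 9 genes and all lists were chosen with earlier results of these data known. Named besides the 9 genes were Cdh16, up to 6 genes with the smallest p of each list around ITAM signalling, the first markers of each cell type list and the 8 nearest profiles. Clec5a, Clec7a, Trem3, Ncr1, Cd163, Spi1, C1qa, C1qc, Zap70, Ncf1, Cyba, Rac2, Ptpn6, Inpp5d, Cd300a, Kit, Gata2, Lhx1, Osr1 and Pax8 were named after their values were seen. Osteoclast markers (4 tested) gave no call. List genes that lacked a single-gene probe set were not analysed here. Alternatives changed the scaling, floor, filter, probe set rule, variance model and block, left out each array, or used the methods' t-test or a fold threshold.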

Additional observations from a re-analysis of the deposited data

How the results depend on the processing

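None of the 7 tested genes turned direction under the alternatives run. Trem2 and Pirb were refitted only without the filter, which leaves a difference unchanged, so whether their direction holds was not tested. Of the other genes named with a recomputed difference, those that turned were not called in any of these settings: Ncf1 (-0.0084 with the values as deposited, -0.056 to 0.22 when single arrays were left out), Cyba (-0.64 to 0.25 when single arrays were left out), Ptpn6 (-0.83 to 0.18, likewise) and Inpp5d (-0.41 with the mean of its probe sets, -0.064 to 0.51 when single arrays were left out). The small median difference of the endothelial markers turned from 0.05 to -0.04 under quantile normalization and also as deposited. With 2 arrays a fraction, calls depended on the filter, the variance model and single arrays. Without the filter limma called 0 genes higher and 0 lower, and so 0 of the 9 genes, 0 receptors, 0 kinases and 0 ITIM genes. The methods' t-test also called 0 in each after Benjamini-Hochberg adjustment, and 666 genes higher and 570 lower unadjusted. With every probe set tested alone, 64 genes were higher and 68 lower, with 1 kinase and 0 ITIM genes higher. Of the 9 genes, 3 were again higher in that setting, but with Fcgr2b in place of Tyrobp, which did not pass (adjusted p = 0.0567 from limma). With the values as deposited 352 genes were lower and 4 ITIM genes higher. With the floor at the 40th or the filter at the 60th percentile 1 ITIM gene was higher. A 2-fold threshold in place of the test gave 1017 genes higher and 984 lower, with 5 of the 9 genes, 8 receptors, 5 kinases and 7 ITIM genes higher and 4 kinases lower. A 3-fold threshold gave 362 higher and 352 lower, with 4 ITIM genes higher and 1 kinase lower.

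Leaving out each array in turn gave 72 to 368 genes higher and 52 to 424 lower, the fewest without KSP-negative replicate 2 and the most without KSP-positive replicate 2. It gave 2 to 5 of the 9 genes, 4 to 6 receptors, 0 to 3 kinases and 0 to 6 ITIM genes higher, and 0 to 2 kinases and 0 to 1 ITIM genes lower, again with the most without KSP-positive replicate 2. The median difference of the 7 tested genes ran from 1.47 to 2.53, the lowest without KSP-positive replicate 1.

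With the replicate number as a block 571 genes were higher and 560 lower, with 5 ITIM genes higher and 1 kinase lower. Deviations of same-numbered arrays correlated at 0.166, and with 2 pairs this does not show that the numbers pair the arrays. Under this block Fcer1g passed as well (adjusted p = 0.0117 from limma).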
